A study of Mus musculus with 12 samples.

Results

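The proteins of the cytosolic ribosome are encoded, with few exceptions, by genes named Rpl for the large and Rps for the small subunit. The genes described here are the protein-coding genes of the mouse whose symbol begins with Rpl or Rps and a number, together with Rplp0, Rplp1, Rplp2 and Rpsa, without pseudogenes and without the kinases of the Rps6k family. There were 87 such genes among the 50684 genes counted. Of these, 77 encode proteins of the standard ribosome (31 of the small and 46 of the large subunit) and are called core genes, 8 are paralogs (copies related to a core gene), and Rps19bp1 and C330021F23Rik, an Rps23-related gene, encode other proteins. Fau and Rack1, ribosomal proteins that carry other names, are given separately.

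The ribosome translates mRNA into protein, and its proteins are made in matched amounts from some of the most abundant mRNAs of a cell. These mRNAs begin with a terminal oligopyrimidine tract, a run of C and T through which the mTOR pathway and the binding protein LARP1 regulate their translation and stability. In skin, ribosome production accompanies the growth of keratinocytes and the activation of immune cells.

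RNA was sequenced from a part of the ear of 12 female C57BL/6 mice aged 8 weeks, with 3 mice per group: PBS, IL-17A, IL-36γ, and both cytokines together (IL-17A + IL-36γ, here also the combination). The ear pinna received intradermal injections of 5 µl of PBS, which in the treated groups held 1 µg of each cytokine named, and tissue was taken after 4 days of treatment. Each group of the study had 5 mice, of which 3 were sequenced, and no genetic modification of the mice is named. The ear holds epidermis, dermis, cartilage, fat and muscle, and which part was used is not given in the sources used here, so that fewer cells of a type and less RNA per cell cannot be told apart.

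The libraries held between 25293468 and 34759293 counts. PBS replicate 1 stood apart from the other PBS libraries: the summed level of 13 skeletal muscle genes, all detected, was 394 CPM (counts scaled to library size and TMM factor) in it and 3176 and 2712 CPM in PBS replicates 2 and 3. This sum was 2175 to 2886 CPM in IL-17A, 1078 to 2084 CPM in IL-36γ and 210 to 1207 CPM in IL-17A + IL-36γ. Counts of genes called against PBS are therefore also given without PBS replicate 1.

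The share of all counts that fell in the 87 genes does not depend on scaling between libraries. It was 4.10%, 3.65% and 3.67% in the PBS libraries, 4.38%, 4.26% and 4.30% in IL-17A, 4.19%, 3.94% and 3.91% in IL-36γ, and 4.08%, 3.82% and 3.86% in IL-17A + IL-36γ. The IL-17A libraries lay above all others, and the PBS libraries overlapped with those of IL-36γ and of the combination through PBS replicate 1. In every group replicate 1 had the highest share, and replicate 1 had the highest CPM of its group in 77 of the 77 core genes in PBS, 62 in IL-17A, 75 in IL-36γ and 56 in the combination. The means were 3.81% ± 0.253 in PBS, 4.31% ± 0.0634 in IL-17A, 4.01% ± 0.155 in IL-36γ and 3.92% ± 0.136 in the combination (SD, n = 3). The proportion of large to small subunit counts was 1.367 to 1.377 in PBS, 1.321 to 1.348 in IL-17A, 1.360 to 1.377 in IL-36γ and 1.375 to 1.388 in the combination, so that IL-17A had the lowest values and did not overlap with any other group.

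**Figure D1:**
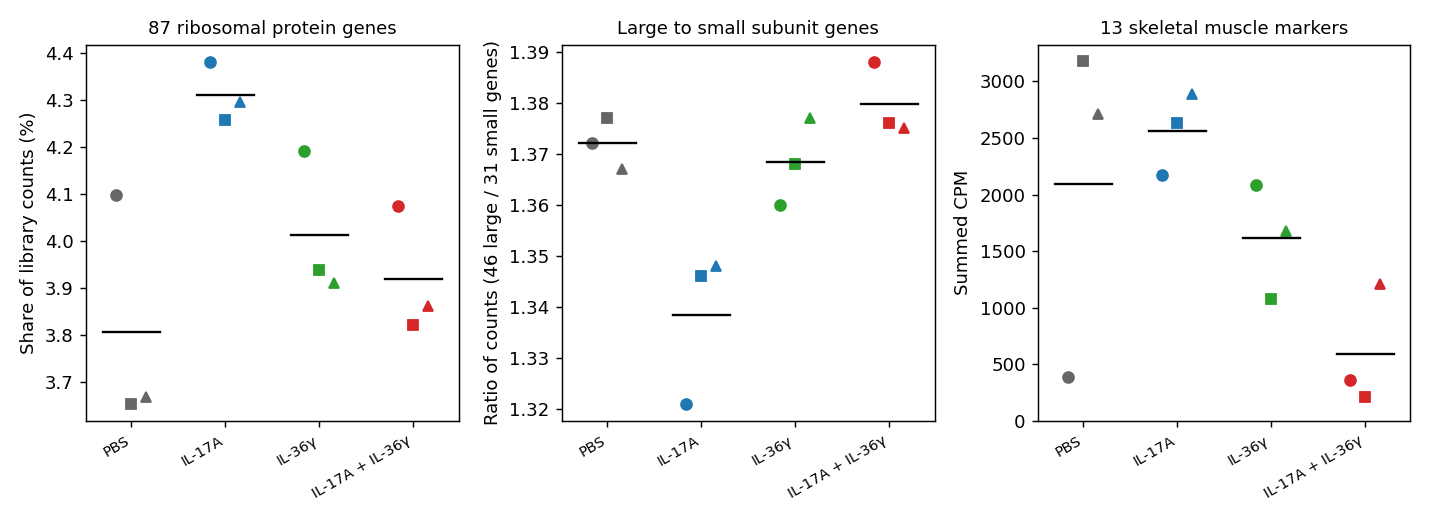
Per library (circle, square and triangle for replicates 1, 2 and 3, line for the group mean), the left panel shows the percent of counts in the 87 ribosomal protein genes, the middle panel the counts of 46 large over 31 small subunit core genes, and the right panel the summed CPM of 13 skeletal muscle genes; the axes of the left and middle panels do not start at 0. The IL-17A libraries, at 4.26% to 4.38%, lie above all other libraries in the left panel, and PBS replicate 1 lies far below the other PBS libraries in the right panel.

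IL-17A was compared with PBS to ask which genes respond to this cytokine alone. After IL-17A, 52 of the 85 tested genes rose and 0 fell (edgeR quasi-likelihood test, adjusted p below 0.05), against 7.44% called higher and 3.49% called lower among all 19408 genes tested. By unadjusted p-value 79 were higher and 0 lower, beside 19% and 12% of all genes. DESeq2 called 70 higher and 0 lower, beside 11.5% and 9.08% of all genes. The rise was small and uniform. The log2 fold changes of all 85 genes were above 0, between 0.16 and 0.58, with a median of 0.36 (1.29-fold) beside a median of 0.04 over all tested genes. All 3 IL-17A libraries exceeded all 3 PBS libraries in 78 of the 85 genes, beside 19.6% of all genes. Both subunits took part, with 23 of 31 small and 26 of 46 large subunit genes called.

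The number of calls depended on single libraries, while the direction of the median did not. Without PBS replicate 1 the number was 79 and the median 0.46, beside 15.2% of all genes called higher. In that fit the paralog Rpl3l had a value below 0 (-0.11, adjusted p = 0.889). Leaving out PBS replicate 2, PBS replicate 3 or IL-17A replicate 1 gave 0, where 1.6%, 0.0965% and 0.333% of all genes were called higher. No member named below as rising after IL-17A was therefore called in these fits. The number was 3 without IL-17A replicate 2 (2.15% of all genes) and 28 without IL-17A replicate 3 (4.83%). It was 18 and 28 without replicate 2 and replicate 3 of the combination (3.21% and 4.64%), and 0 when only the libraries of these groups entered the fit (0.0906%). In these fits other than the first the median lay between 0.28 and 0.39. In the fits with 1 library left out, 0 of the genes were called lower. Scaling by library size alone in place of TMM lowered the median of all genes from 0.04 to -0.13 and the number of members called to 15, with 2.51% of all genes called higher and 10.3% lower, while the members' median stayed 0.32 above that of all genes.

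The ribosomal stalk, the lateral arm of the large subunit that recruits elongation factors, is formed by Rplp0, Rplp1 and Rplp2. Rplp1 (ENSMUSG00000007892, chr9:61913284-61914542 of mm10, minus strand) had the highest level of all members per kilobase of exon, at 2111 CPM per kb. Its levels were 1005, 823 and 796 CPM in PBS, 1336, 1160 and 1120 CPM in IL-17A, 1166, 992 and 1026 CPM in IL-36γ, and 1215, 1008 and 994 CPM in the combination. The IL-17A libraries lay above the PBS libraries without overlap, and the groups treated with IL-36γ or both overlapped with PBS. After IL-17A, Rplp1 rose by 0.46 on the log2 scale (adjusted p = 0.0357, standard error 0.12).

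Rplp0, the scaffold of the stalk and a common reference gene for qPCR, was at 2246, 1805 and 1809 CPM in PBS, 2274, 2228 and 2259 CPM in IL-17A, 2319, 1861 and 1954 CPM in IL-36γ, and 1971, 1759 and 1794 CPM in the combination. PBS replicate 1 reached the level of the IL-17A libraries. It differed from PBS by 0.21 (adjusted p = 0.229, standard error 0.11) after IL-17A and -0.09 (adjusted p = 0.557) after the combination. Rplp2, with 310 to 346 CPM in PBS and 370 to 395 CPM in IL-17A, differed by 0.23 (adjusted p = 0.118), short of the threshold. Without PBS replicate 1 the difference after IL-17A was 0.32 (adjusted p = 0.0469) for Rplp0 and 0.28 (adjusted p = 0.0627) for Rplp2. Rpsa, a small subunit protein that also acts as a laminin receptor, was at 1127, 900 and 908 CPM in PBS and 1344, 1206 and 1224 CPM in IL-17A, and rose by 0.36 (standard error 0.11, adjusted p = 0.0493).

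Among the small subunit genes, Rps27, a zinc-binding protein, was at 558, 450 and 454 CPM in PBS and 751, 629 and 614 CPM in IL-17A. The groups did not overlap, and Rps27 rose by 0.45 (adjusted p = 0.0297, standard error 0.11). Rps21, a protein of late small subunit maturation, rose by 0.47 (adjusted p = 0.0391) and Rps19, which is mutated in Diamond-Blackfan anaemia, by 0.40 (adjusted p = 0.0252). Rps6, the substrate of the S6 kinases, rose by 0.33 (adjusted p = 0.0477), from 269 to 325 CPM in PBS to 357 to 376 CPM in IL-17A. Rps28, with a log2 fold change of 0.18 (adjusted p = 0.265), had the smallest value of the core genes.

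Among the large subunit genes, Rpl35, located at the exit of the peptide tunnel, was at 178, 146 and 147 CPM in PBS and 253, 213 and 209 CPM in IL-17A. It rose by 0.52 (adjusted p = 0.0225, standard error 0.11) with no overlap of the groups. Rpl39, which lines the same tunnel, rose by 0.51 (adjusted p = 0.0223) and Rpl34 by 0.51 (adjusted p = 0.0211). Rpl5 and Rpl11, which bind Mdm2 and link ribosome assembly to the p53 pathway, rose by 0.35 (adjusted p = 0.0269) and 0.42 (adjusted p = 0.039). Rpl3, which lies near the peptidyl transferase centre, had a value of 0.22 (adjusted p = 0.119) and Rpl4 rose by 0.29 (adjusted p = 0.0396).

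**Figure D2:**
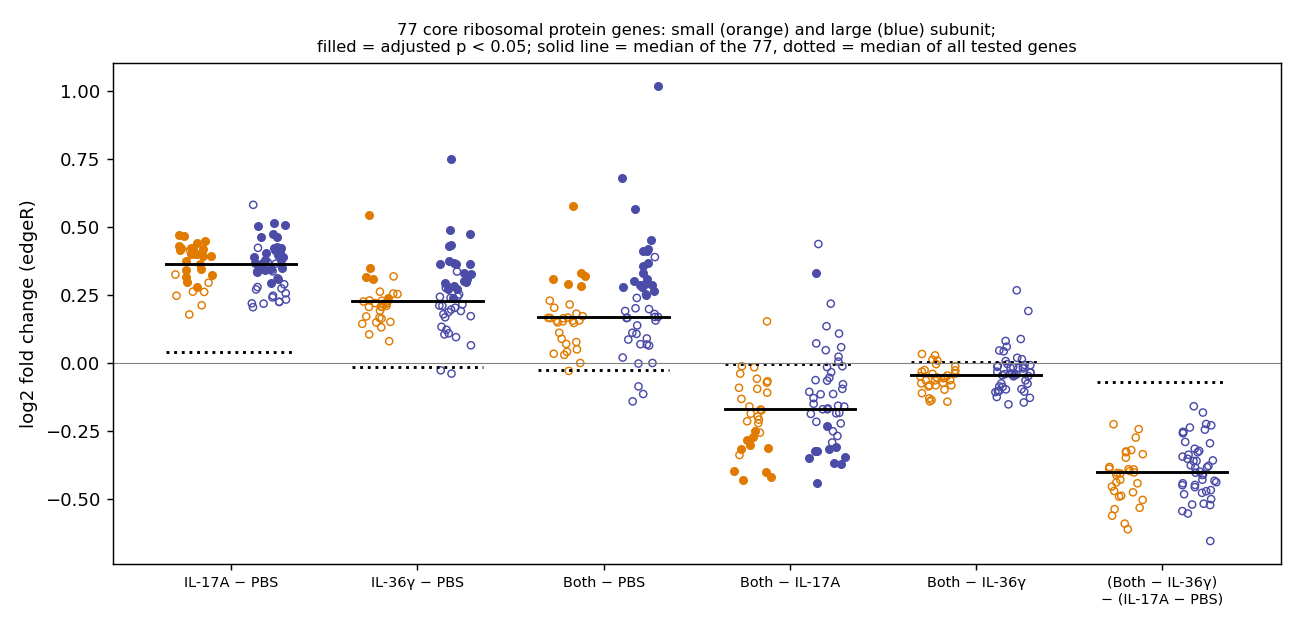
Each point is the edgeR log2 fold change (y axis) of 1 of the 77 core genes in 6 comparisons (x axis), with small subunit genes in orange and large subunit genes in blue, filled at an adjusted p below 0.05; solid lines are medians of the 77 genes and dotted lines medians of all tested genes. All 77 points lie above 0 after IL-17A, and Rpl41 has the highest value after the combination, 1.02.

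IL-36γ was compared with PBS in the same way. After IL-36γ, 27 of the 85 genes rose and 0 fell, against 17.3% of all tested genes called higher and 11.1% called lower. By unadjusted p-value 51 were higher and 0 lower, beside 23.1% and 18.8% of all genes. DESeq2 called 32 higher and 0 lower, beside 15.8% and 14.1% of all genes. The median log2 fold change was 0.23 beside -0.01 over all genes, with values from -0.30 (Rpl39l) to 0.75 (Rpl41) and 81 of 85 above 0. In 23 genes the libraries of the groups did not overlap, beside 22.4% of all genes. The calls comprised 5 of 31 small and 20 of 46 large subunit genes. The share of the small subunit genes lay slightly below the 17.3% of all genes, and that of the large subunit genes above it. Without PBS replicate 1 the number was 63, beside 21.7% of all genes called higher. Leaving out PBS replicate 2, PBS replicate 3 or IL-36γ replicate 1 gave 7, which is 8.24% of the members and below the 11.8%, 10.2% and 10.9% of all genes in these fits. It was 12 without IL-36γ replicate 2 (11.9% of all genes), 17 and 13 without IL-17A replicates 1 and 2 (15.9% and 14.6%), and 14 without replicate 2 of the combination (15.1%). With library size alone 9 genes were called higher and 2 lower, beside 11% and 22% of all genes.

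After IL-17A + IL-36γ, 28 of the 85 genes rose and 0 fell against PBS, beside 23.7% of all genes called higher and 20.9% called lower. By unadjusted p-value 33 were higher and 1 was lower, beside 26.8% and 25.5% of all genes. DESeq2 called 31 higher and 0 lower, beside 20% and 18.8% of all genes. The median was 0.17 beside -0.02 over all genes. The groups did not overlap in 30 genes in the upward direction, beside 27% of all genes. Of the small subunit genes 6 of 31 were called, a share below the 23.7% of all genes, and of the large subunit genes 19 of 46, a share above it. The share of members called higher was 32.9%. Without PBS replicate 1 the number was 51, beside 25.8% of all genes. In that fit 1 member, Rpl3l, was called lower, beside 23.4% of all genes. The number called higher was 11, 9 and 12 without PBS replicate 2, PBS replicate 3 and replicate 1 of the combination. These counts are 12.9%, 10.6% and 14.1% of the members, below the 19.2%, 18.2% and 19.2% of all genes called higher in the same fits. With library size alone 11 were called higher and 3 lower, beside 16.6% and 30.6% of all genes.

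Of the 85 genes, 17 were called higher in all 3 comparisons with PBS, 31 passed the test after IL-17A and not in the other comparisons, and 22 passed in none. Of all 19408 tested genes 5% were called higher in all 3, 1.61% after IL-17A and no other treatment, and 73.4% in none. These comparisons share the PBS mice. The 17 genes were Rpl10, Rpl13a, Rpl15, Rpl19, Rpl22l1, Rpl27, Rpl27a, Rpl34, Rpl35, Rpl36a, Rpl36al, Rpl37, Rpl38, Rpl7a, Rps2, Rps3 and Rps9. The mean level of the 77 core genes was highest after IL-17A in 62, after IL-36γ in 7 and after the combination in 8, and lowest after PBS in 72 and after the combination in 5. With a log2 fold change above 1 required as well, 0 genes were called after IL-17A (1.07% of all genes), 0 after IL-36γ (5.11%) and 1, Rpl41, after the combination (7.35%).

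Rpl41 (ENSMUSG00000093674, chr10:128548114-128549305 of mm10, minus strand) encodes a very short, highly basic protein at the interface of the subunits. It was at 385, 266 and 255 CPM in PBS, 532, 410 and 416 CPM in IL-17A, 532, 485 and 511 CPM in IL-36γ, and 767, 515 and 556 CPM in the combination. All treated libraries lay above all PBS libraries, and the groups of both cytokines and of IL-36γ overlapped. After IL-17A it differed from PBS by 0.58 (adjusted p = 0.0551, standard error 0.18), short of the threshold, and without PBS replicate 1 by 0.80 (adjusted p = 0.0075). It rose by 0.75 (adjusted p = 0.00948) with IL-36γ and by 1.02 (adjusted p = 0.000829, standard error 0.18) with the combination. The combination differed from IL-17A by 0.44 (adjusted p = 0.0782).

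Rpl13a (ENSMUSG00000074129, chr7:45125558-45128761 of mm10, minus strand), a large subunit protein that also takes part in silencing inflammatory mRNAs, showed the same order of groups. It was at 16.4, 15.5 and 14.5 CPM in PBS, 21.7, 17.4 and 19.9 CPM in IL-17A, 22.0, 21.4 and 21.6 CPM in IL-36γ, and 26.9, 22.2 and 25.2 CPM in the combination. The treated libraries lay above all PBS libraries, and those of the combination above all others. It rose against PBS by 0.35 (adjusted p = 0.0433) with IL-17A, 0.49 (adjusted p = 0.00377) with IL-36γ and 0.68 (adjusted p = 0.000223, standard error 0.10) with the combination. Its level of 9.64 CPM per kb was the lowest of the core genes, whose median was 242 CPM per kb. Of its exonic bases, 35.4% lie in exons of other genes on the same strand, among them Gm45713, which had 0 counts in all 12 libraries, and the part of this overlap in the level was not tested. Rpl24, the next lowest at 12.5 CPM per kb, shares 47% of its exonic bases in this way with Gm28037, also at 0 counts in all libraries.

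Rps2, a small subunit protein at the mRNA entry, was at 685, 534 and 518 CPM in PBS, 760, 736 and 834 CPM in IL-17A, 932, 852 and 749 CPM in IL-36γ, and 930, 841 and 822 CPM in the combination. The treated libraries lay above those of PBS, and the treated groups overlapped. It rose by 0.42 (adjusted p = 0.0431), 0.54 (adjusted p = 0.00595) and 0.58 (adjusted p = 0.00211) after IL-17A, IL-36γ and both. Rpl7a and Rpl38, a protein linked to the translation of Hox mRNAs, had the next values among the core genes after the combination, with rises of 0.57 (adjusted p = 0.000742) and 0.45 (adjusted p = 0.000904). Of the 76-base windows of Rps2 and Rpl7a transcripts, 35.7% and 31.5% also occur in transcripts of other genes, among them many pseudogenes.

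**Figure D3:**
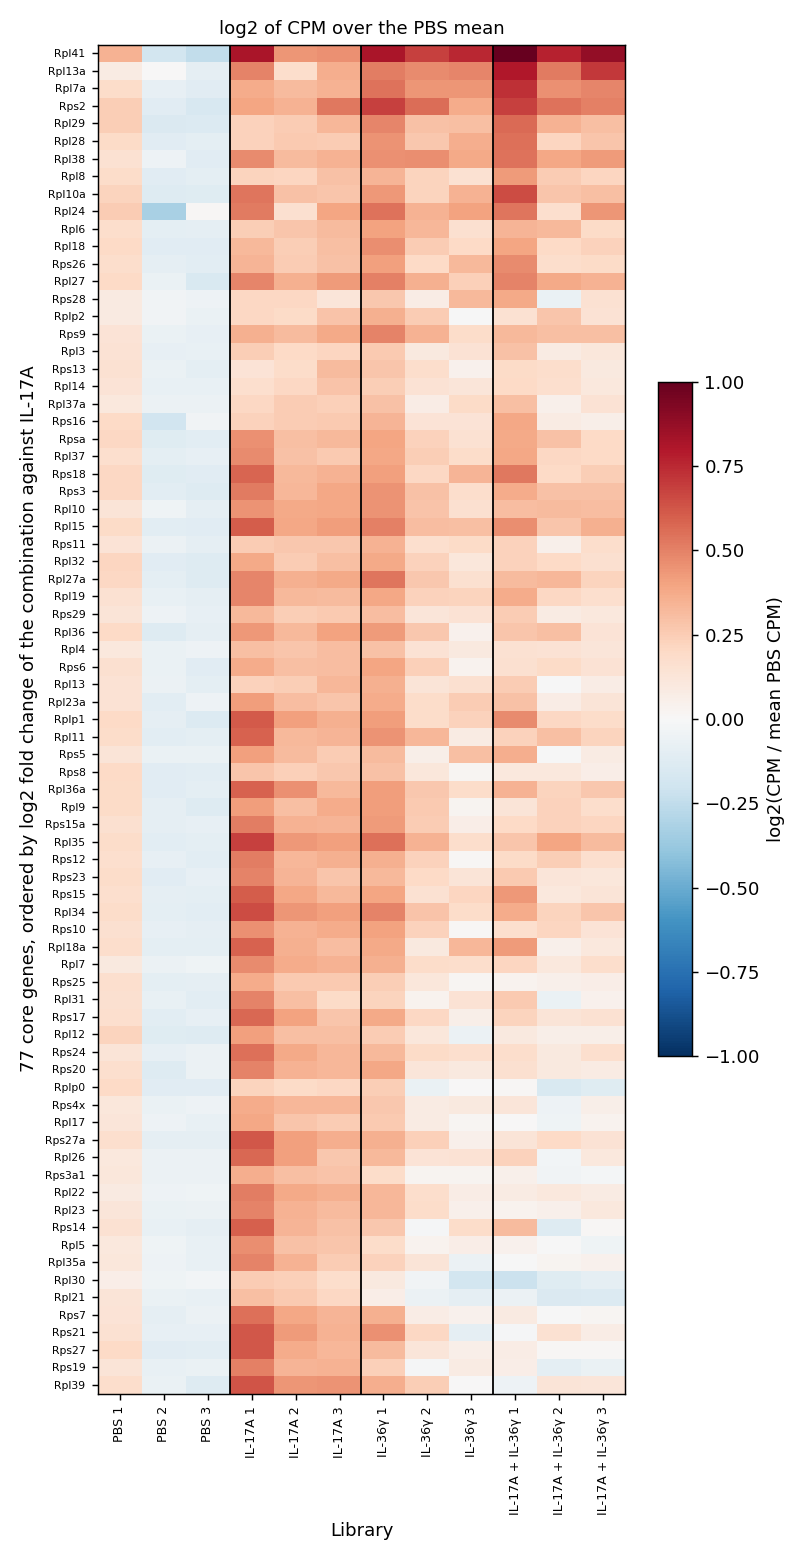
Each row is 1 of the 77 core genes and each column 1 of the 12 libraries, and the colour is the log2 of the CPM over the mean CPM in PBS, from -1 in blue to 1 in red, with rows ordered by the fold change of the combination against IL-17A. Rpl41 and Rpl13a at the top are highest in the combination, the genes at the bottom such as Rpl39, Rps19 and Rps27 are highest in IL-17A, and PBS replicate 1 is redder than the other PBS libraries.

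The combination was compared with IL-17A alone to ask what IL-36γ adds. Relative to IL-17A, 21 of the 85 genes fell and 1 rose (Rpl13a), beside 17.7% of all tested genes called lower and 15.1% called higher. The median log2 fold change was -0.17 beside 0.00 over all genes, and 71 of 85 values were below 0. All 3 libraries of the combination lay below all 3 of IL-17A in 42 genes, beside 25.4% of all genes. Among the genes that fell, 10 were of the small and 10 of the large subunit, and the last was the paralog Rpl3l. Without IL-17A replicate 1 the number was 9, without IL-17A replicate 2 it was 12, and without replicates 2 and 3 of the combination it was 10 and 13. These counts are 10.6%, 14.1%, 11.8% and 15.3% of the members, beside 13.2%, 10.6%, 11.5% and 15.1% of all genes called lower, so that the members' share was near or below that of all genes in 3 of these 4 fits.

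Rpl39 (ENSMUSG00000079641, chrX:37082520-37085402 of mm10, minus strand) was at 333, 282 and 271 CPM in PBS, 456, 401 and 403 CPM in IL-17A, 380, 349 and 296 CPM in IL-36γ, and 285, 323 and 321 CPM in the combination. The IL-17A libraries lay above all others, while those of the combination fell within the range of PBS. Rpl39 fell by 0.44 (standard error 0.11, adjusted p = 0.00936) from IL-17A to the combination.

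Rps19 was at 461, 401 and 403 CPM in PBS, 599, 535 and 536 CPM in IL-17A, 497, 419 and 445 CPM in IL-36γ, and 442, 394 and 404 CPM in the combination. The IL-17A libraries lay above all others, and the other groups overlapped. Rps19 fell by 0.43 (standard error 0.09, adjusted p = 0.00421). Rps27, Rps21 and Rps7, a small subunit protein that also binds Mdm2, fell by 0.42 (adjusted p = 0.0125), 0.40 (adjusted p = 0.03) and 0.40 (adjusted p = 0.0102).

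Rpl21 fell by 0.37 (adjusted p = 0.00439) against IL-17A, and Rpl30, an RNA-binding protein that limits its own splicing in other organisms, by 0.36 (adjusted p = 0.00426). Rpl21 was also the 1 gene called lower after IL-36γ than after IL-17A, by 0.28 (adjusted p = 0.0476), where 3.61% of all genes were called lower and 4.37% higher. In that comparison 16 members were lower by unadjusted p-value and 0 higher, beside 12.7% and 12.3% of all genes, and DESeq2 called 7 lower and 0 higher, beside 7.69% and 7.82% of all genes. The count of members called lower was 5 without PBS replicate 1, where 5.32% of all genes were called lower, 1 without IL-36γ replicate 1 and 0 without any other single library.

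IL-17A + IL-36γ was compared with IL-36γ alone to ask what IL-17A adds. Here 0 of the 85 genes were called by edgeR, with 0 by unadjusted p-value in either direction (5.6% of all genes higher and 9.54% lower), and DESeq2 called 0, with 1 higher by unadjusted p-value. Among all genes edgeR called 0.0206% lower and 0 genes higher, and DESeq2 called 3.45% lower and 1.71% higher. The median log2 fold change of the members was -0.04, with a median standard error of 0.10. For Rpl41 the difference was 0.27 with a 95% interval from -0.14 to 0.68, and for Rpl13a 0.19, from -0.03 to 0.41.

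The interaction asks whether the response to IL-17A differed between ears with and without IL-36γ. All 85 values were below 0, with a median of -0.40 beside -0.07 over all genes. With edgeR 0 of the 85 genes passed the test, beside 0.423% of all genes called lower and 0.129% called higher. By unadjusted p-value 65 members were lower, beside 13.9% of all genes. DESeq2 called 36, beside 6.53% of all genes lower and 5.49% higher, and without PBS replicate 1 edgeR called 51, beside 5.13% of all genes lower. Rpl39 had a value of -0.65 (standard error 0.15, adjusted p = 0.0651) and Rpl22 one of -0.52 (standard error 0.11, adjusted p = 0.055).

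**Figure D4:**
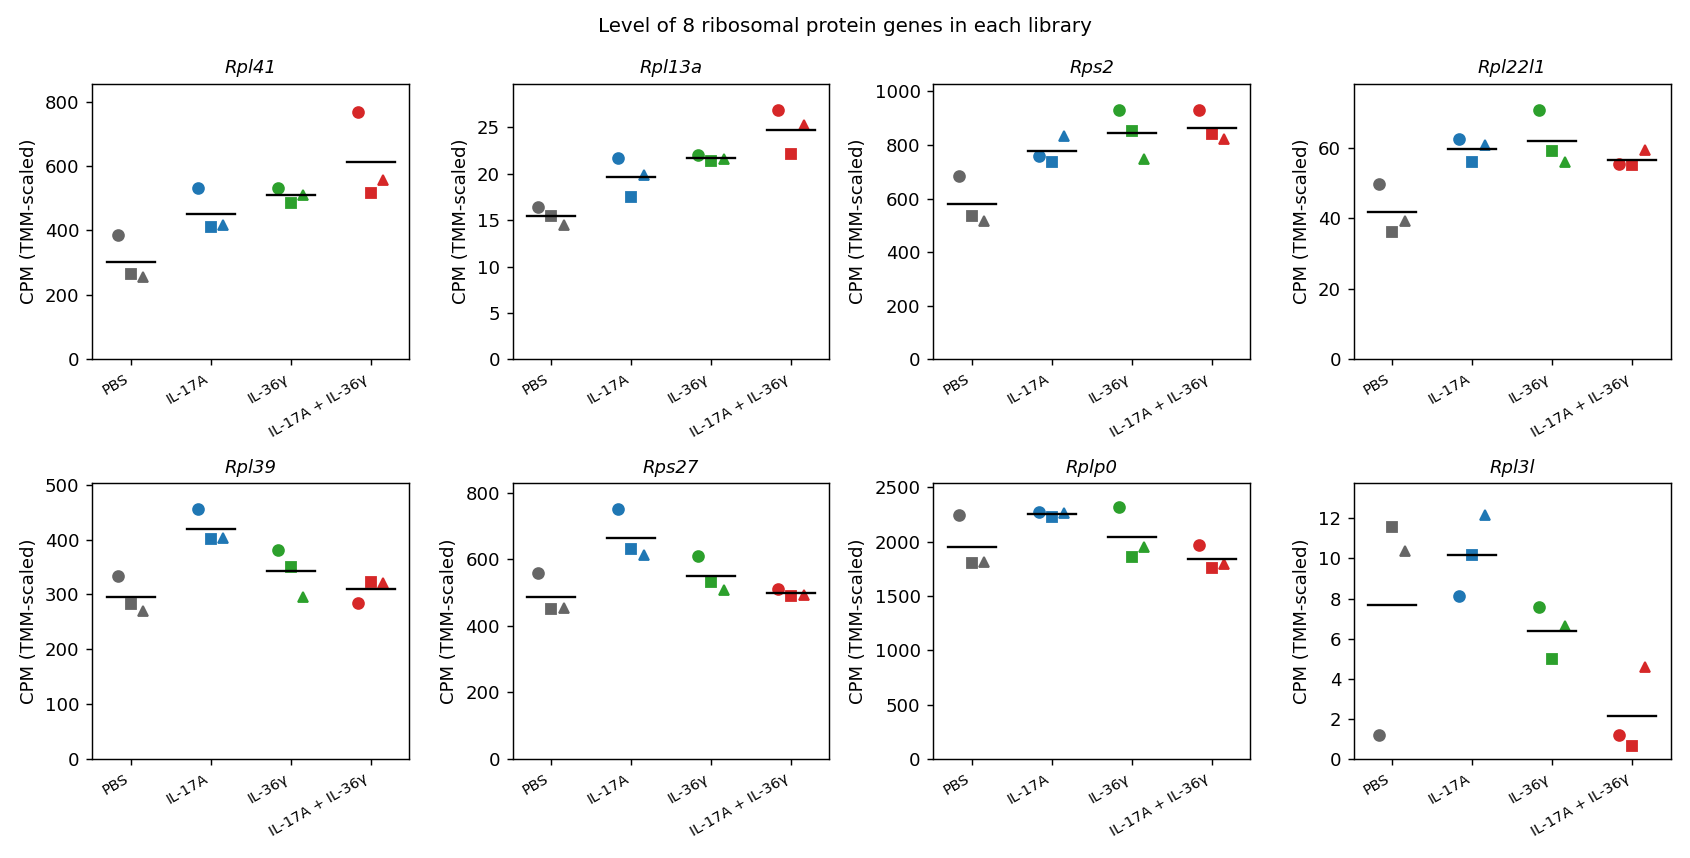
CPM (y axis, from 0) of 8 genes in each library (circle, square and triangle for replicates 1, 2 and 3), with the group means as lines. Rpl41 is highest in the combination, at 515 to 767 CPM, Rpl39 in IL-17A, at 401 to 456 CPM, and Rpl3l is near 1 CPM in PBS replicate 1 and in replicates 1 and 2 of the combination.

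The paralogs are copies of core genes, some of which replace the parent protein in certain tissues. Rpl22l1, a paralog of Rpl22 that can replace it in the ribosome, was at 49.7, 36.1 and 39.3 CPM in PBS, 62.4, 55.9 and 60.9 CPM in IL-17A, 70.6, 59.1 and 56.0 CPM in IL-36γ, and 55.3, 55.0 and 59.3 CPM in the combination. All treated libraries lay above all PBS libraries, and the treated groups overlapped. It rose by 0.52 (adjusted p = 0.0249), 0.57 (adjusted p = 0.00438) and 0.44 (adjusted p = 0.00957) in this order. Rpl22 itself, at 220 to 242 CPM in PBS, 291 to 324 CPM in IL-17A and 241 to 245 CPM in the combination, rose by 0.41 (adjusted p = 0.0159) after IL-17A and had a value of 0.09 (adjusted p = 0.361) after the combination. From IL-17A to the combination Rpl22 fell by 0.32 (adjusted p = 0.00811), while Rpl22l1 differed by -0.08 (adjusted p = 0.64). The difference between these paralogs was not tested.

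Rpl36al, a retrocopy of Rpl36a without introns, rose by 0.51 (adjusted p = 0.02), 0.52 (adjusted p = 0.0037) and 0.60 (adjusted p = 0.000758) after IL-17A, IL-36γ and both, from 58.0 to 72.4 CPM in PBS to 92.5 to 101 CPM in the combination. Rpl36a rose by 0.46 (adjusted p = 0.0229), 0.29 (adjusted p = 0.0453) and 0.28 (adjusted p = 0.0388). Rps27l, a paralog of Rps27 that is a target of p53, rose by 0.30 (adjusted p = 0.0415) after IL-17A. Rpl7l1, a paralog of Rpl7 that acts in ribosome assembly, rose by 0.22 (adjusted p = 0.0171) after the combination. Rps27rt shares 90.3% of its 76-base windows with Rps27 and other genes, so that its level of 2.22 to 3.54 CPM is uncertain.

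Rpl3l takes the place of Rpl3 in the ribosomes of striated muscle. It was at 1.19, 11.6 and 10.4 CPM in PBS, 8.15, 10.2 and 12.1 CPM in IL-17A, 7.59, 5.00 and 6.61 CPM in IL-36γ, and 1.21, 0.658 and 4.58 CPM in the combination. PBS replicate 1 was as low as the combination, and the libraries of the combination lay below those of IL-17A and of IL-36γ. After the combination it fell by 2.22 (standard error 0.72, adjusted p = 0.0338) against IL-17A, and the difference from PBS was -1.82 (adjusted p = 0.0572). Without PBS replicate 1 the difference from PBS was -2.32 (adjusted p = 0.00277). The libraries with the lowest Rpl3l, PBS replicate 1 and replicates 1 and 2 of the combination, were also those with the lowest summed level of the 13 muscle genes, at 210 to 394 CPM. The call of Rpl3l against IL-17A was lost without IL-17A replicate 2 or 3 (adjusted p = 0.0737 and 0.0786). It was also lost without replicate 1 or 2 of the combination (adjusted p = 0.114 and 0.11). Rpl39l, mainly known from the testis, was at 1.76 to 4.17 CPM and passed no test. Rpl10l, the testis copy of Rpl10, had 0 counts in every library and C330021F23Rik had 1 to 7 counts, so that these genes were not tested.

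Of the genes used as references in qPCR, Rpl13a, Rpl19, Rpl4, Rps18 and Rps29 rose after IL-17A, by 0.28 (Rps29) to 0.42 (Rps18), whereas Rplp0 and Rpl32 (0.31, adjusted p = 0.0647) did not pass. Without PBS replicate 1 the value of Rpl32 was 0.44 (adjusted p = 0.00717). Without PBS replicate 2, PBS replicate 3 or IL-17A replicate 1 none of these reference genes was called after IL-17A. Rps18 was at 644, 515 and 516 CPM in PBS and 837, 698 and 710 CPM in IL-17A, with no overlap. After the combination Rpl13a, Rpl19 and Rps18 rose, the last by 0.33 (adjusted p = 0.0401). Rpl19 rose by 0.38 (adjusted p = 0.0304), 0.28 (adjusted p = 0.0392) and 0.25 (adjusted p = 0.0438) after IL-17A, IL-36γ and both.

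Rack1 and Fau were fitted in the same model. Rack1, a signalling scaffold at the small subunit, was at 1010, 862 and 846 CPM in PBS and 1227, 1128 and 1141 CPM in IL-17A, and rose by 0.36 (adjusted p = 0.0418) with IL-17A, 0.30 (adjusted p = 0.0433) with IL-36γ and 0.29 (adjusted p = 0.0343) with both. Fau, which is made as a fusion with a ubiquitin-like protein, differed by 0.30 (adjusted p = 0.0691), 0.28 (adjusted p = 0.056) and 0.29 (adjusted p = 0.0365).

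Other genes of translation were followed in lists, whose counts stand beside 7.44%, 17.3% and 23.7% of all tested genes called higher after IL-17A, IL-36γ and both. One list held 27 translation factors and related genes, chosen for a terminal oligopyrimidine tract. Whether each of their mRNAs carries this tract was not examined. Of these genes 11, 12 and 13 rose with IL-17A, IL-36γ and the combination, in which Eif4a2 fell, with medians of 0.28, 0.24 and 0.22. Pabpc1, the poly(A)-binding protein, was at 203, 185 and 179 CPM in PBS and 246 to 346 CPM in IL-17A, and rose by 0.58 (adjusted p = 0.0183) after IL-17A and 0.66 (adjusted p = 0.000841) after both. Npm1, a nucleolar chaperone of ribosome assembly, rose by 0.48 (adjusted p = 0.0248) after IL-17A and 0.79 (adjusted p = 0.000165) after both. Tpt1, another gene of this list, rose by 0.43 (adjusted p = 0.0394) after IL-17A and fell by 0.40 (adjusted p = 0.0216) from IL-17A to the combination. The elongation factor gene Eef2 had values of 0.10 (adjusted p = 0.52) after IL-17A and -0.01 (adjusted p = 0.967) after both.

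Of 64 ribosome biogenesis genes tested, 4 rose after IL-17A and 0 fell, 3 rose and 2 fell after IL-36γ, and 21 rose and 2 fell after both. The shares of 4 and of 3 in 64 lay below those of all genes. Fbl, the methyltransferase of the nucleolus, rose by 0.53 (adjusted p = 0.00304), Bop1 by 0.50 (adjusted p = 0.00238) and Ncl by 0.53 (adjusted p = 0.00524) after the combination. Of 20 genes of RNA polymerase I and its factors, 1, 2 and 7 rose after IL-17A, IL-36γ and both, and 1 fell in each, Taf1a. Of 12 host genes of small nucleolar RNAs, 1 rose and 1 fell after IL-17A, and 2 rose and 4 fell after both, Gas5 among the latter (-0.21, adjusted p = 0.0356). Of 20 genes of the mTOR pathway and its targets, 2 rose after IL-17A, Myc (0.41, adjusted p = 0.0294) and Eif4ebp2 (0.46, adjusted p = 0.0255), and 5 rose and 1 fell after both. Of 19 cap-binding and initiation genes 5, 11 and 13 rose, and of 13 tested genes of ribosome quality control 0, 2 and 3 rose, after IL-17A, IL-36γ and both.

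Markers of other cells moved in the same libraries. Of 10 macrophage markers 8, 10 and 9 rose after IL-17A, IL-36γ and both, with a summed level of 840 to 982 CPM in PBS, 1328 to 1811 CPM in IL-17A, 2032 to 2273 CPM in IL-36γ and 1894 to 2056 CPM in the combination. Of 10 neutrophil markers 5, 7 and 9 rose, with sums from 114 to 204 CPM in PBS to 504 to 1006, 2398 to 4938 and 7714 to 10160 CPM. Most of this sum in the treated groups lay in S100a8 and S100a9, which the paper also traces to macrophages and keratinocytes. In the combination they were at 3135 to 3767 and 4341 to 6080 CPM. Ly6g did not exceed 0.858 CPM in any library. Il1r2 was at 87.8 to 102 CPM in PBS and 62.8 to 85.5 CPM in the combination. Of 18 proliferation genes 2 rose with IL-17A, and all 18 with IL-36γ or both, with summed levels of 662 to 1150 CPM in PBS, 1071 to 1251 CPM in IL-17A, 1775 to 2143 CPM in IL-36γ and 2333 to 2616 CPM in the combination. PBS replicate 1, with the highest members' share of its group, also had the highest proliferation sum of its group. In the other groups replicate 1 had the highest members' share but not the highest proliferation sum. Its sum was 1236, 1851 and 2459 CPM in IL-17A, IL-36γ and the combination. The highest sums of these groups were 1251, 2143 and 2616 CPM.

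All 6 tested red blood cell genes rose after IL-17A and 0 after IL-36γ or both, with sums of 61.6 to 105 CPM in PBS, 130 to 333 CPM in IL-17A, 82.3 to 147 CPM in IL-36γ and 63.9 to 120 CPM in the combination. The share of mitochondrial counts was 4.30% to 5.66% in IL-17A and 3.11% to 3.73% in the other groups. None of the markers of these lists was at 0 in all libraries, and 4 of 13 muscle, 10 of 10 adipocyte and all 9 tested chondrocyte markers fell after both. Of 10 markers each of differentiated keratinocytes, fibroblasts and T cells, 1 of each list rose and 0 fell after IL-17A. Of the differentiated keratinocyte markers 6 rose after IL-36γ and 4 after both, and 0 fell. Of the fibroblast markers 1 rose and 1 fell after IL-36γ, and 1 rose and 3 fell after both. Of the T cell markers 4 rose and 1 fell after IL-36γ, and 5 rose and 3 fell after both. Of 10 basal keratinocyte markers 1 rose after IL-17A, and 2 rose and 2 fell after IL-36γ and after both. Their summed level was 9931 to 11890 CPM in PBS, 12860 to 15510 CPM in IL-17A, 13740 to 16540 CPM in IL-36γ and 16590 to 20570 CPM in the combination, with no overlap between PBS and the treated groups. The median log2 fold changes of these 10 markers were 0.09, -0.11 and -0.04 after IL-17A, IL-36γ and both. The sum therefore does not describe the list as a whole. From IL-17A to the combination, where 21 members fell, all 6 red blood cell, 6 of 10 fibroblast, 10 of 13 muscle, 10 of 10 adipocyte and 9 of 9 chondrocyte markers fell as well. The part of these cells and shares in the members' levels was not tested.

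The promoters of the members were examined because the genes moved together. In RefSeq (GRCm38.p6), 66 of the 87 genes had an entry of 300 bases, 250 before the start and 50 after it. The letters CTTTCC, a pyrimidine run, were found on either strand in 50% of the 66 entries and in 26.3% of the 27025 entries of all genes, 1 per gene. The letters CCGGAAG, which contain the core bound by ETS factors, were found in 37.9% and 9.12%, and TATAAA in 9.09% and 14.2%, again on either strand. Matches to the first and the second of these can overlap by 2 bases. A match describes the letters only. The windows of 120 bases (90 before and 30 after the start) are shown for 8 of the genes named above, with matches to the pyrimidine and ETS letters, on either strand, in capitals. Of 12 such windows read for genes named here, 6 held a match, and Rpl34 and Rps2 are shown as examples without one in these 120 bases:

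Rpl34, chr3:130730369-130730488, minus strand: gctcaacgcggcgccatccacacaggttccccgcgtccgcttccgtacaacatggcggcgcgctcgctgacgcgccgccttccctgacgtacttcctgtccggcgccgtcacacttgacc
Rpl35, chr2:39005102-39005221, minus strand: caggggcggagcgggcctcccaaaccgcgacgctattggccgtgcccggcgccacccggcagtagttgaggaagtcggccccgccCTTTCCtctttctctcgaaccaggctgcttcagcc
Rps27, chr3:90213619-90213738, minus strand: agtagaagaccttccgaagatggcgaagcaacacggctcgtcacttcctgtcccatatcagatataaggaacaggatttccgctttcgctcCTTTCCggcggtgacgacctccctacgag
Rpl39, chrX:37085193-37085312, minus strand: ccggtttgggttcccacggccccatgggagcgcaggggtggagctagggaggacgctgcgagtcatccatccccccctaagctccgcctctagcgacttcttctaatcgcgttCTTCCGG
Rpl41, chr10:128549139-128549258, minus strand: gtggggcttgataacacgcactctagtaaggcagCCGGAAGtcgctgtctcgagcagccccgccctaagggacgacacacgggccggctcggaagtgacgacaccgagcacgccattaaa
Rpl13a, chr7:45128716-45128835, minus strand: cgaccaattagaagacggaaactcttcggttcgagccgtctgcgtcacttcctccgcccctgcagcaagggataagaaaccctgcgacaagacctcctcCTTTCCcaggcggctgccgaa
Rps2, chr17:24719973-24720092, plus strand: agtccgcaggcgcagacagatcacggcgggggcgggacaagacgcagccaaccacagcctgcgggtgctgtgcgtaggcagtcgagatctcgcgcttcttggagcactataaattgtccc
Rpl38, chr11:114668490-114668609, plus strand: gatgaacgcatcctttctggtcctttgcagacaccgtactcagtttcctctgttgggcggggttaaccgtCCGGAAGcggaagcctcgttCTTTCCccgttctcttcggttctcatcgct

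In Rpl35, Rps27, Rpl13a and Rpl38 the pyrimidine letters lie at or near the RefSeq start. In Rpl39 a reverse ETS match lies at the end of the window and in Rpl41 an ETS match lies well before the RefSeq start. The whole windows of Rpl39, Rpl41 and Rps2 lie within the bounds of these genes in GENCODE, whose outermost start is further upstream. The positions therefore hold for the RefSeq start only.

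Many members share sequence with other genes, which bears on their counts. Of the 77 core genes, 60 share over 10% of their 76-base windows, the length of a read, with transcripts of other genes, and 5 share over 50%, with a median of 19.2% and a maximum of 77.9% in Rpl23a. The 293 pseudogenes of ribosomal protein genes with -ps in their symbol held 0.0135% to 0.0187% of the counts in any library. Many of the genes that share windows have other names and are not in this sum. How many reads of the members were lost to or taken from such genes was not tested.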

How the data were processed

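Total RNA of a part of the mouse ear was sequenced in 12 libraries (TruSeq Stranded Total RNA, paired reads of 76 bases). The authors used STAR 2.5.2b for alignment (mm10) and deposited raw counts per gene, made with featureCounts of Subread 1.5.1. The strand setting and the treatment of reads with several matches are not given in the sources used here, so counts of genes that share sequence or overlap are uncertain. Deposited tables of 5 comparisons hold fold changes and p-values of DESeq2 1.30.0. Only their gene symbols were used.

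Counts were fitted with edgeR 4.0.16 in R 4.3.3 (quasi-likelihood test, TMM scaling, 4 group means over 12 libraries, 3 per group, 8 residual degrees of freedom, low counts removed with filterByExpr at a minimum of 10). This left 19408 of 50684 genes, and 85 of the 87 members. The p-values are two-sided and adjusted over all tested genes (Benjamini-Hochberg), with calls at 0.05. Fold changes are on the log2 scale. CPM are counts scaled to library size and TMM factor. The common biological coefficient of variation was 14.2%. Libraries held 25293468 to 34759293 counts, so that differences between mice, not counting error, limited precision for most members. No libraries were copies of each other (chi-square per gene 7.03 to 63.3 within groups).

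On simulated counts for IL-17A against PBS (19408 genes, 50 per size), 12% of genes changed by a log2 fold change of 0.4 were recovered, 68% at 0.75, 76% at 1 and 92% at 1.5, with 7 false calls, and 0 calls where nothing was changed. The changed genes were drawn at random above 1 CPM, and no shift common to the genes of a library was simulated. These values therefore need not hold for the members, which moved together by library.

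Members and lists were chosen with earlier results of these data known. The genes named were paralogs and stalk genes, the 3 largest changes in each direction per comparison, the 3 highest and lowest levels per kilobase, reference genes, and the leading genes of each list. Others were named for their role after their values were seen. Exons and shared 76-base windows were taken from GENCODE vM21 and promoters from RefSeq. Alternatives were DESeq2 1.42.0, other scalings and filters, only the groups compared, the replicate number as a block, and leaving out each library. The labels name no pairing of the mice, and the results given are unpaired unless the block is named. A pairing by replicate number was considered where every same-numbered pair of the groups compared had a correlation of deviations above 0.1. This held only for the combination against IL-36γ (0.128 to 0.24). Over the members the same pairs had -0.482, 0.709 and 0.146. The pairs of PBS and IL-17A had 0.508, 0.268 and 0.488 over the members, but 0.08, -0.063 and 0.069 over all tested genes. A pairing was thus neither established nor excluded, and counts with the replicate block are given below. The result of 1 gene is not reported here.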

Additional observations from a re-analysis of the deposited data

How the results depend on the processing

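The median log2 fold change of the 85 genes kept its direction in all alternatives run, except against IL-36γ, where it was 0.04 without IL-36γ replicate 1 (range without single libraries -0.10 to 0.04). The counts moved more. With each library left out in turn, the number called higher was 0 to 79 after IL-17A, 7 to 63 after IL-36γ and 9 to 51 after both, with 0 to 1 lower after both, and against IL-17A it was 0 to 2 higher and 9 to 25 lower after both and 0 to 5 lower after IL-36γ, and 0 to 51 for the interaction. These fits gave medians of 0.28 to 0.46, 0.13 to 0.31, 0.14 to 0.26, -0.18 to -0.10, -0.18 to -0.05 and -0.50 to -0.29 in the same order of comparisons. Scaling by library size alone gave 15, 9 and 11 genes higher and 0, 2 and 3 lower against PBS. Of all genes 2.51%, 11% and 16.6% were higher and 10.3%, 22% and 30.6% lower in these comparisons. Against IL-17A 3 were higher after both and 4 lower after IL-36γ, beside 16.3% and 2.67% of all genes. This scaling gave medians of 0.20, 0.078 and 0.028 against PBS and -0.22 for the interaction, because it moves all genes alike. With only the groups compared, and fewer residual degrees of freedom, the numbers higher were 0, 9 and 13 against PBS. Of all genes 0.0906%, 13.1% and 20.1% were higher in these fits. The members' shares of 10.6% after IL-36γ and 15.3% after both lay below those of all genes. In such fits against IL-17A 0 were higher after both (16.1% of all genes). Rpl21 was not called there (0 lower after IL-36γ, beside 3.47% of all genes). Without a filter on low counts 17 were higher and 1 lower after both against PBS, beside 11.6% and 12.3% of all genes. In the same fit 2 were higher after both against IL-17A (8.12% of all genes). There 0 were lower after IL-36γ against IL-17A (1.68% of all genes). For the interaction 3 were called without this filter, beside 0.49% of all genes higher and 0.866% lower. With a log2 fold change above 1 the numbers were 0, 0 and 1 higher against PBS, 0 higher and 1 lower after both against IL-17A, and 0 lower after IL-36γ. DESeq2 called 7 lower after IL-36γ against IL-17A and 36 for the interaction, and size factors of the DESeq2 type, or TMM without the members and muscle genes (added after seeing the data), called 0 lower there. The correlation of deviations over all tested genes was -0.20 to 0.35 in 18 pairs of mice with the same replicate number, 9 above 0.1. All 3 pairs were above 0.1 between IL-36γ and the combination, where the replicate block changed no call (0 higher and 0 lower), and not in any other comparison. By the labels the mice share only a number. With the block 72, 47 and 40 genes were higher after IL-17A, IL-36γ and both against PBS, beside 11%, 19.2% and 24.6% of all genes. Against IL-17A 3 were higher (16.7% of all genes) and 31 lower (18.6%) after both, and 8 lower after IL-36γ (4.06%), with the block. For the interaction 39 were called with it, beside 2.01% of all genes higher and 2.54% lower. The cause of these differences was not tested unless named. As a share of protein-coding counts the members took 4.18%, 4.88%, 4.42% and 4.32% in PBS, IL-17A, IL-36γ and the combination, and 4.53% in IL-17A without mitochondrial counts. Without PBS and IL-17A replicate 1 together, also added after seeing the data, 68 genes were called higher after IL-17A, beside 9.99% of all genes. None of the named genes reversed its direction where called, while 402 of their values kept their side of the threshold and 93 lost the call with other settings, and 432 kept it and 228 lost the call without single libraries.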
